A study of Mus musculus with 24 samples.

Results

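Primary cells from brown fat and from white fat were compared after 4 days in culture, before the differentiated stage. The members were the 13 arrays whose titles name brown or white adipocytes at 4 days, of 24 arrays in the series: 5 from brown cells (array numbers 05, 06, 09, 10 and 19) and 8 from white cells (33, 34, 37, 38, 41, 42, 45 and 51). Both groups were mouse primary cells grown in vitro and labelled non differentiated. The other 11 arrays, 5 brown and 6 white, came from cells labelled differentiated at day 7. Some adipocyte genes were already well expressed at day 4. The median signal of Adipoq, the adipokine adiponectin, was 2476 in brown and 2074 in white cells, against 5604 and 5895 at day 7. That of Cebpa, an adipogenic factor, was 3749 and 2288, against 3039 and 2757, so the label does not stand for cells without adipocyte transcripts. Others were still far lower than at day 7. The median of Cidec, a lipid droplet fusion protein, was 10.2 in brown and 63.6 in white cells, against 68.5 and 305. That of Retn, the adipokine resistin, was 48.8 and 347, against 926 and 2802. The labels give no strain, sex, age, fat depot or transgene, and nothing in them tells whether arrays within a group stand for different animals or cultures. The p-values therefore reflect array-to-array spread within a group, some or all of which may be technical. Total RNA was hybridised to Affymetrix 3′ arrays, and each value is a MAS5 signal, the brightness that this algorithm assigns to a probe set. The labels name no sort of the cells, and in such bulk samples fewer cells of a type and less RNA per cell cannot be told apart.

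Brown fat burns fuel to make heat through uncoupled respiration in its many mitochondria, whereas white fat stores triglyceride. The classical brown depots arise from dermomyotome precursors that are related to skeletal muscle, and brown and white precursors differ in patterning genes before either has filled with lipid. Zic1, Lhx8 and Meox2 are transcription factor genes used as marks of the brown precursor, and Tcf21, Wt1 and the posterior Hox genes as marks of white precursors.

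Of 8397 probe sets tested, 1933 (23.0%) differed at an adjusted p under 0.05 in limma with Benjamini-Hochberg adjustment, and "called" below means past that threshold. Brown cells were higher at 908 of them (10.8%) and white cells at 1025 (12.2%). Counted by gene, 1540 of 6281 were called (24.5%), with 733 higher in brown (11.7%) and 807 higher in white (12.8%), and these shares are the background for every gene list below. The median log2 difference over the 6281 genes, brown minus white, was 0.012. The groups did not overlap on any array at 609 probe sets (7.25%). Large differences lay more often on the white side: of 580 calls of at least 2-fold, 422 were higher in white cells and 158 in brown cells.

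Differences are given below as brown minus white on the log2 scale ± the standard error of the fit. Signals were floored at 8.21, so a gene at the floor on every array of a group has only a lower bound on its fold. For 26 of the 107 called genes whose values were followed through all alternative settings, a higher floor, at the 40th percentile of all signals, shrank the log2 difference by over 1.5 times; that value is given as the higher-floor value where such a gene is described. Brown arrays correlated with each other at r from 0.927 to 0.956 over the tested probe sets, white arrays at 0.890 to 0.956, and brown with white arrays at 0.854 to 0.940. White arrays 45 and 51 lay between the groups on the first principal component (32.7% of variance), at 0.82 and -1.23, against -38.8 to -16.3 for the other white arrays and 30.5 to 34.2 for the brown arrays. Without both, 2369 probe sets were called. The ratio of 3′ to 5′ Gapdh probe sets, a measure of RNA quality, was 0.884 ± 0.0825 in brown cells (SD, n = 5) and 0.943 ± 0.0955 in white cells (SD, n = 8; two-sided exact permutation p = 0.278). Consecutive array numbers held a single cell type, so any handling that followed the numbers cannot be told apart from cell type. The fit treated arrays as independent. With runs of these numbers as a random block, the estimated correlation within a run was 0.245, and 1449 probe sets were called. Standard errors and p-values below come from the fit without blocks unless stated.

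Factors that mark the brown precursor were higher in brown cells. Of 6 brown lineage factors tested, 4 were called higher in brown cells, none was called higher in white, and the list median was 2.09 against 0.012 over all genes. Zic1, a zinc finger patterning factor, read 104, 71.9, 119, 115 and 58.4 on the brown arrays and was at the floor on every white array, so it was at least 10.98-fold higher in brown cells (log2 3.46 ± 0.21, limma adjusted p = 2.89e-12; higher-floor value 1.64). Lhx8, a LIM homeobox factor, read 119, 127, 175, 160 and 126 on the brown arrays and 8.21 to 21.5 (median 9.06) on the white arrays. Meox2, a homeobox factor of the somite and limb muscle, read 149, 176, 148, 157 and 96.5 on the brown arrays and 8.21 to 34.8 (median 17.8) on the white arrays. No brown array overlapped a white array for any of these factors. The differences were 3.62 ± 0.31 for Lhx8 (adjusted p = 1.74e-09; higher-floor value 2.27) and 3.09 ± 0.32 for Meox2 (adjusted p = 7.01e-08). Ebf3, a relative of the brown fat factor Ebf2, was higher by 1.10 ± 0.24 (adjusted p = 0.00122). Ebf2 itself, at 0.58 ± 0.22, did not pass (adjusted p = 0.0514): its brown signals, 114 to 149, lay within the white range of 39.2 to 151.1. Its difference passed when white array 33 (0.71, adjusted p = 0.0118), 34 (0.65, adjusted p = 0.0341) or 41 (0.65, adjusted p = 0.0321) was left out, and was 0.35 (adjusted p = 0.149) without white arrays 45 and 51.

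The genes listed here as white marks moved mostly, though not all, toward white cells. The list is broader than the marks named above: Tcf21, Wt1, Hoxc8, Hoxc9, Dpt, Lep, Nnat, Inhbb, Tbx15, Shox2 and En1. Of these 11, all tested, 6 were called higher in white cells and 2 in brown, with a list median of -2.04. Lep, Shox2 and En1 were not called. Tcf21, a helix-loop-helix factor of the mesenchyme, read 13.8, 8.21, 8.21, 8.21 and 23.7 on the brown arrays against 250 to 443 (median 304) on the white arrays, and its difference was -4.83 ± 0.22 (adjusted p = 1.41e-14), the smallest p-value of the 8397 in this fit. Wt1, a zinc finger factor of mesothelium and visceral fat, read 10.7 to 21.9 in brown cells (median 11.6) and 68.8 to 131 (median 99.5) in white cells (-2.83 ± 0.20, adjusted p = 3.29e-11; higher-floor value -1.71). Dpt, which encodes the matrix protein dermatopontin, read 34.05 to 88.3 in brown cells and 183 to 752 (median 493.2) in white cells, and its lowest white arrays were 51 and 45, at 183 and 224. The groups stayed apart for all of these genes (Dpt -3.03 ± 0.29, adjusted p = 1.78e-08). Inhbb, the inhibin beta B subunit, was at the floor on all brown arrays and at least 6.58-fold higher in white cells (adjusted p = 3.11e-07; higher-floor value -0.90).

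The 2 genes of that list called higher in brown cells were Nnat and Tbx15. Nnat, an imprinted gene for the membrane protein neuronatin, read 1407, 751, 252, 166 and 1083 on the brown arrays and 8.21 to 76.9 (median 53.1) on the white arrays (3.82 ± 0.50, adjusted p = 3.75e-06). Its brown arrays spread widely, and even the lowest of them was above every white array. Tbx15, a T-box factor with roles in skeletal muscle and subcutaneous fat, read 44.7, 27.1, 49.0, 40.8 and 37.3 in brown cells and lay at the floor on each white array, at least 4.75-fold higher in brown (adjusted p = 9.95e-08; higher-floor value 0.45).

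**Figure D1:**
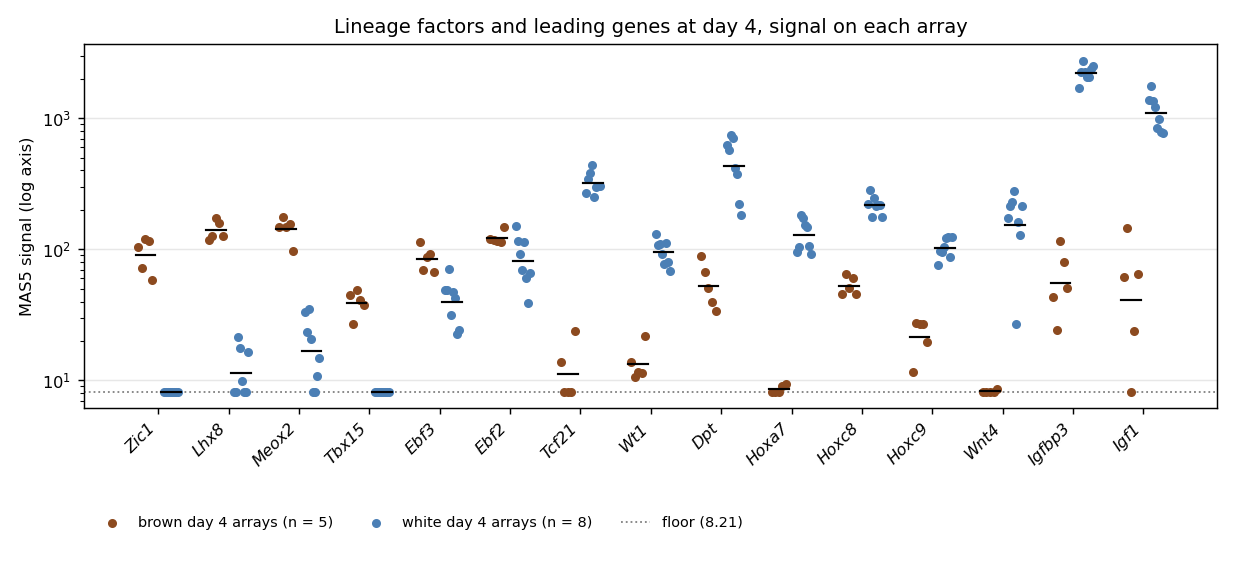
MAS5 signal (log axis) of 15 lineage and leading genes on each of the 5 brown and 8 white day 4 arrays; the horizontal lines mark the mean of log2 signals and the dotted line the floor of 8.21. Zic1 and Tbx15 sit at the floor on every white array, whereas Tcf21, Igfbp3 and Igf1 are higher on all 8 white arrays than on any brown array.

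The Hox genes, which record position along the body axis, moved in both directions. Of 31 on the array, 21 passed the filter on low signals; 5 were called higher in brown and 4 in white, and the median was 0.02. Those higher in brown cells were Hoxa2 (0.80 ± 0.18, adjusted p = 0.00154), Hoxb4 (1.63 ± 0.36, adjusted p = 0.00151; higher-floor value 0.24, adjusted p = 0.0823, no longer called), Hoxb5 (0.85 ± 0.25, adjusted p = 0.0145), Hoxd8 and Hoxa5. Hoxd8 read 133 to 183 in brown cells and 70.4 to 113 in white cells, without overlap (0.93 ± 0.14, adjusted p = 3.43e-05). Hoxa5, named after its values were seen because it completes the count, was near the threshold (0.59 ± 0.19, adjusted p = 0.026) and lost its call without brown array 05 (adjusted p = 0.0893) or 09 (adjusted p = 0.0804), and with number runs as a random block (0.49, adjusted p = 0.111).

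The 3 large white-enriched Hox differences were in Hoxa7, Hoxc8 and Hoxc9. Hoxa7 read 8.21 to 9.40 on the brown arrays and 92.0 to 183 (median 127) on the white arrays (-3.89 ± 0.23, adjusted p = 1.46e-12; higher-floor value -2.14). Hoxc8 was measurable in both types, at 45.4 to 65.1 in brown cells and 176 to 283 in white cells (-2.04 ± 0.15, adjusted p = 1.09e-10). Hoxc9 read 11.6 to 27.3 against 75.5 to 125 (-2.25 ± 0.22, adjusted p = 1.6e-08), on a probe set of a kind that can also detect related transcripts. Hoxc4, at -0.64 ± 0.23 (adjusted p = 0.0472), lay at the threshold and lost its call without any 1 of brown arrays 05, 06 and 10 or white arrays 34, 37, 38, 41 and 42 (adjusted p from 0.0708 to 0.139), and with number runs as a random block (adjusted p = 0.11). Among 41 other homeobox and patterning factors tested, 6 were called higher in brown and 8 in white (median 0.03), and Meis1, a cofactor of Hox proteins, was higher in white cells (-2.27 ± 0.33, adjusted p = 1.28e-05; higher-floor value -0.78). The 6 include Lhx8, Zic1, Meox2 and Tbx15, already counted above.

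**Figure D2:**
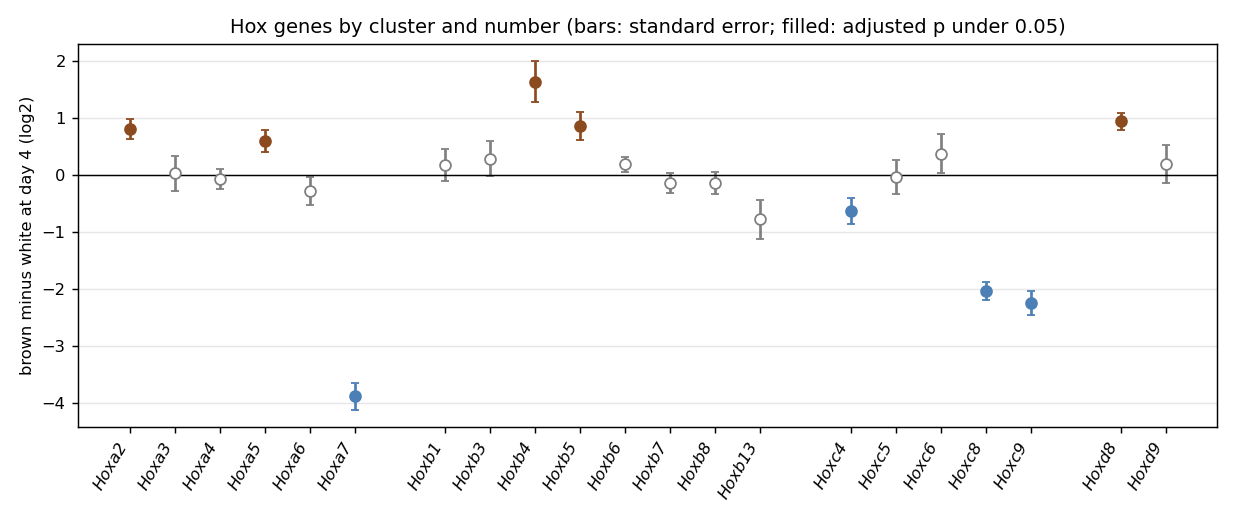
Brown minus white log2 difference at day 4 with its standard error for the 21 tested Hox genes, ordered by cluster (A to D) and number; filled points have an adjusted p under 0.05. Hoxa7, Hoxc8 and Hoxc9 lie at or below -2.04, and the 5 filled points above 0 lie between 0.59 and 1.63.

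The nuclear factor I genes, a family of DNA-binding transcription factors, were higher in white cells as a whole family, but unevenly across white arrays. All 4 were called: Nfix at -2.20 ± 0.45 (adjusted p = 0.000883), Nfib at -1.97 ± 0.39 (adjusted p = 0.000582), Nfia at -1.68 ± 0.47 (adjusted p = 0.00998; higher-floor value -0.70) and Nfic at -1.28 ± 0.24 (adjusted p = 0.000283). The mean log2 signal of the family was 5.505 to 6.23 on the brown arrays and 7.91 to 8.32 on 6 of the white arrays. On white arrays 45 and 51 it was 5.74 and 6.06, at the level of the brown arrays, so no member separated the groups completely. Without these 2 arrays the family median moved from -1.82 to -2.43, and the Wilcoxon rank sum test called none of the 4. Without brown arrays 05 and 06, Nfia lost its call (-1.62, adjusted p = 0.0582). A second Nfix probe set gave -0.22 (adjusted p = 0.567).

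Skeletal muscle genes were higher in the brown cultures. The part of any muscle cells among the unsorted brown cells in this difference was not tested. Of 32 striated muscle structural genes tested, 12 were called higher in brown cells (37.5%, against 11.7% of all genes) and 1, Tcap, in white, and 9 separated the groups completely. The list median was 0.43, and leaving out any 1 array kept the count of brown-higher genes at 12. The list's mean log2 signal was 6.06 to 6.502 on the brown arrays and 5.28 to 5.63 on the white arrays. The called genes included slow and fast isoforms of the contractile apparatus as well as its embryonic and cardiac forms.

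Promoters of 3 of the 12 muscle genes called higher in brown are shown as examples, because myogenic factors such as MyoD and myogenin bind E-boxes. All 3 hold the marked motif, so they are not a random sample of the 12. The stretches are the 250 bases before the annotated start, read 5′ to 3′ on the gene's strand from RefSeq (GRCm38.p6); capitals mark the E-box CAGCTG, which reads the same on both strands. Positions of the motif's first base relative to the start were -224 in Myl1 (chr1:66945057-66945306, minus strand), -221 in Acta1 (chr8:123894776-123895025, minus strand) and -79 in Mybph (chr1:134193198-134193447, plus strand).
Myl1: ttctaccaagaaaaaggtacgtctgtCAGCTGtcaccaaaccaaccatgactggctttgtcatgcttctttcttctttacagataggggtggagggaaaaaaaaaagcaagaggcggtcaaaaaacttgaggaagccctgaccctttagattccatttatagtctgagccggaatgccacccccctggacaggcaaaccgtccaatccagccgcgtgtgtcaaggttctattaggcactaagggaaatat
Acta1: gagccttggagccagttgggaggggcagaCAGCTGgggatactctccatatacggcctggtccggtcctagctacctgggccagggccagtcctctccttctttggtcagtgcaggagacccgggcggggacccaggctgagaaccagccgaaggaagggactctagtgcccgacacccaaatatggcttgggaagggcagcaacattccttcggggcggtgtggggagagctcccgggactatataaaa
Mybph: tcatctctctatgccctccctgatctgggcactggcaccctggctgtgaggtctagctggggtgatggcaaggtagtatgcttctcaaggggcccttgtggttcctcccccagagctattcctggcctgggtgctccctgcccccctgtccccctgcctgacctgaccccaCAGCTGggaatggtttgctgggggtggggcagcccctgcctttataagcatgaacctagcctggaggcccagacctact

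The letters CAGCTG were found in this window in 17 of 33 promoters of the tested muscle genes (51.5%), in 8 of 13 promoters of those higher in brown (61.5%), in 11.8% of promoters of all tested genes and in 13% of all 32851 promoters in the table. Over all genes higher in brown cells the share was 10.4%, and over those higher in white cells 12.8%. A match says only that the letters are present in the window.

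Tnnc1, slow and cardiac troponin C, read 169, 151, 112, 244 and 93.2 on the brown arrays and lay at the floor throughout the white arrays, at least 17.7-fold higher (4.15 ± 0.24, adjusted p = 9.1e-13; higher-floor value 2.33). Myl1, a fast myosin light chain, read 259, 352, 163, 388 and 216 against 9.37 to 39.5 in white cells (median 22.6). Acta1, skeletal alpha-actin, read 633, 440, 398, 738 and 702 against 16.5 to 86.0 (median 57.7). Every brown array was above every white array for all of these genes. The differences were 3.69 ± 0.25 for Myl1 (adjusted p = 2.83e-11) and 3.55 ± 0.29 for Acta1 (adjusted p = 7.18e-10).

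Tnni1, slow troponin I, read 417, 458, 335, 482 and 504 in brown cells and 16.2 to 126 (median 88.97) in white cells (2.57 ± 0.31, adjusted p = 1.01e-06). Mybph, a myosin-binding protein, was 2.19 ± 0.24 higher (adjusted p = 1.59e-07), from 67.6 to 137 on the brown arrays against 16.8 to 40.8 on the white arrays. Both genes separated the groups without overlap.

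Among the myogenic regulators, 4 of 13 were called higher in brown and 1, Eya2, in white, with a median of 0.20. Myogenin (Myog), which drives terminal muscle differentiation, read 238, 94.4, 246, 142 and 353 on the brown arrays and 29.4 to 66.0 (median 37.2) on the white arrays (2.34 ± 0.32, adjusted p = 5.84e-06). Myod1, the determination factor, differed far less (0.59 ± 0.18, adjusted p = 0.0153), and lost its call without brown array 19 (0.47, adjusted p = 0.0602). Without that array the count of regulators called higher in brown fell to 1. Myf5, which marks muscle and brown precursors, was at the floor on all arrays and was not tested.

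Smooth muscle and pericyte genes went the opposite way. Of 14 tested, 6 were called higher in white cells and 0 in brown (median -0.53). Mylk, smooth muscle myosin light chain kinase, was -2.17 ± 0.12 (adjusted p = 4.45e-13), and Cnn1, calponin of smooth muscle, was -3.04 ± 0.37 (adjusted p = 9.35e-07).

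**Figure D3:**
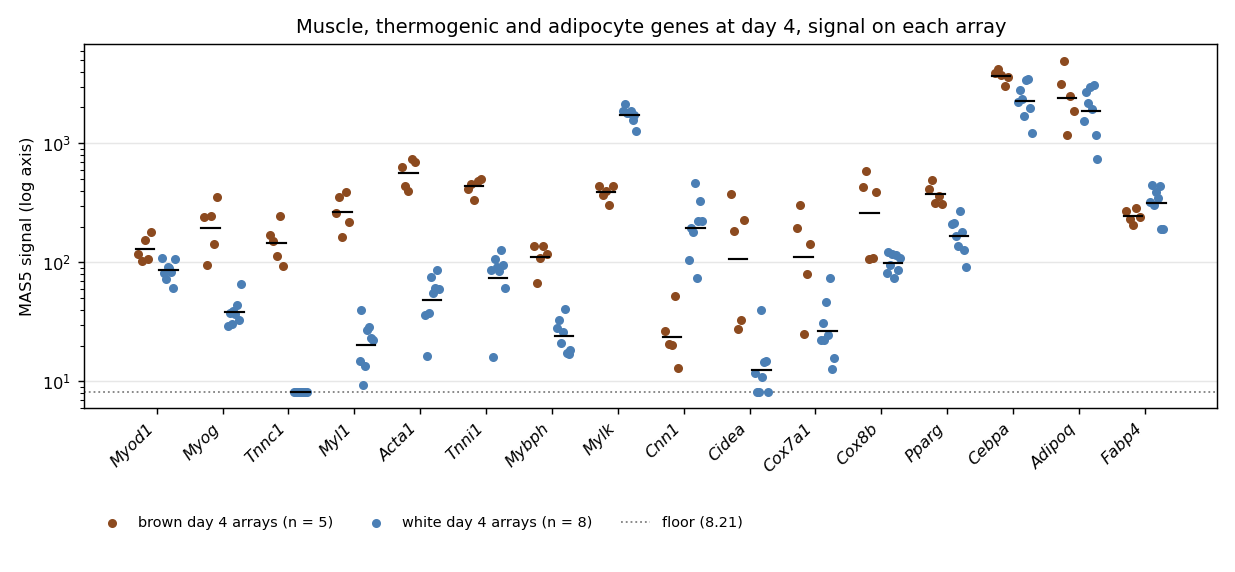
MAS5 signal (log axis) of 16 muscle, thermogenic and adipocyte genes on each day 4 array; the horizontal lines mark the mean of log2 signals and the dotted line the floor of 8.21. Tnnc1, Myl1 and Acta1 separate the groups, Mylk and Cnn1 are higher in white cells, and Cidea, Cox7a1 and Cox8b are high on brown arrays 05, 06 and 19 and low on 09 and 10.

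Thermogenic genes were higher in brown cells on some arrays only. Of 10 tested, 3 were called higher in brown and 0 in white, with a median of 0.40 and no gene that separated the groups. Cidea, a lipid droplet protein that marks brown fat, read 378, 182, 27.3, 32.6 and 226 on the brown arrays and 8.21 to 39.8 (median 11.3) on the white arrays (3.09 ± 0.57, adjusted p = 0.00027; higher-floor value 1.84). Cox7a1, a muscle and brown fat isoform of a cytochrome oxidase subunit, read 194, 303, 25.1, 80.4 and 144 against 12.7 to 74.0 (2.06 ± 0.49, adjusted p = 0.00334). Cox8b, another such isoform, read 433, 589, 106, 108 and 388 against 73.7 to 121 (1.38 ± 0.39, adjusted p = 0.0121). None of the 3 was called by the Wilcoxon rank sum test (adjusted p = 0.0671 for Cidea and Cox7a1 and 0.246 for Cox8b). In all 3 genes arrays 09 and 10 were the lowest of the brown group, and for each at least 1 of them lay inside the white range. Without brown arrays 05 and 06 the count fell from 3 to 1: Cidea, at 2.22, kept its call, Cox7a1 was 1.31 (adjusted p = 0.112) and Cox8b 0.74 (adjusted p = 0.269), and Cox8b also lost its call without 06 alone (1.09, adjusted p = 0.0596). Ucp1, the uncoupling protein, did not pass the filter on low signals: its better probe set read 42.6, 23.0 and 19.4 on brown arrays 05, 06 and 19 and was at the floor on 09 and 10 and on 7 of 8 white arrays. Ppargc1a, the coactivator of mitochondrial biogenesis, was not above 13.9 on any of the 24 arrays and was not tested.

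The general adipocyte genes were nearly balanced at this stage. Of 30 tested, 5 were called higher in brown and 4 in white (median 0.18). Pparg, the master regulator of adipocyte differentiation, read 412, 492, 318, 362 and 309 in brown cells and 91.5 to 269 (median 173) in white cells, without overlap (1.17 ± 0.20, adjusted p = 0.00015). Cebpa, whose product sustains Pparg, was higher by 0.68 ± 0.20 (adjusted p = 0.0166) with overlap, and lost its call without brown arrays 05 and 06 (0.59, adjusted p = 0.12). Aqp7, the glycerol channel, was higher in brown cells by 1.11 ± 0.21 (adjusted p = 0.000348).

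Retn, the adipokine resistin, was higher in white cells at -3.23 ± 0.66 (adjusted p = 0.000725), with overlapping groups and no call by the Wilcoxon test (adjusted p = 0.139). Cidec, a lipid droplet fusion protein (-1.85 ± 0.51, adjusted p = 0.00902; higher-floor value -0.98, adjusted p = 0.09, no longer called), Gpam, the first enzyme of triglyceride synthesis (-1.76 ± 0.24, adjusted p = 5.84e-06), and Cebpb, an early adipogenic factor (-0.90 ± 0.13, adjusted p = 1.59e-05), were also higher in white cells. No call was made for Adipoq (0.38 ± 0.29, adjusted p = 0.371), or for Lep, leptin (0.03 ± 0.24, adjusted p = 0.95). Fabp4, the fatty acid binding protein, was -0.35 ± 0.18 (adjusted p = 0.165), and was called higher in white cells once white arrays 45 and 51 were left out (-0.59, adjusted p = 0.00185), or either of them (-0.46 each, adjusted p = 0.0457 without 45 and 0.0432 without 51). Of 14 preadipocyte markers, 3 were called higher in brown and 6 in white (median -0.07, range -1.18 to 1.23). Those higher in white were, from the largest difference to the smallest, Pdgfrb, Gata2, Ncam1, Cd24a, Vcam1 and Pdgfra. Those higher in brown were Thy1, Dlk1 and Cd34. Thy1, a mesenchymal surface protein, was 1.23 ± 0.18 higher in brown cells (adjusted p = 1.24e-05) and Dlk1, the secreted inhibitor of adipogenesis, 1.03 ± 0.22 (adjusted p = 0.00107). Pdgfra, the receptor used to mark adipose progenitors, was at the threshold on the white side (-0.48 ± 0.17, adjusted p = 0.0473), lost its call when any 1 of 8 arrays was left out and with number runs as a random block (adjusted p = 0.052), and had the opposite sign on its other probe set (0.19).

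Mitochondrial genes were higher in brown cells by small amounts spread over many genes. Of 68 oxidative phosphorylation genes tested, 40 were called higher in brown and 0 in white, and 63 had a positive difference. Only 5 separated the groups, a share near the 7.25% of all probe sets that did so. The list median was 0.51, and its mean log2 signal was 9.68, 9.97, 9.33, 9.45 and 9.57 on the brown arrays against 8.92 to 9.33 on the white arrays. This count leaned on 2 arrays: it was 26 without brown array 05, 18 without 06 and 8 without both, while the median stayed between 0.36 and 0.60 over all settings tried. Sdhd, a membrane anchor of succinate dehydrogenase, read 2380, 2553, 1937, 1563 and 1963 in brown cells and 882 to 1279 in white cells, without overlap (0.99 ± 0.15, adjusted p = 3.08e-05), and Sdhb, its iron-sulphur subunit, was 0.90 ± 0.17 (adjusted p = 0.000313).

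For the TCA cycle, 15 of 23 genes were called higher in brown and 0 in white (median 0.60), and 6 without brown arrays 05 and 06. Idh3a, a subunit of the NAD-dependent isocitrate dehydrogenase, was 0.77 ± 0.14 higher (adjusted p = 0.000254). In fatty acid oxidation, 9 of 21 were called higher in brown and 1, Cpt1a, in white (median 0.32), with 4 higher in brown without array 06 and 1 without 05 and 06. Hadhb, a subunit of the trifunctional protein, was 0.82 ± 0.18 (adjusted p = 0.00134), and 0.52 (adjusted p = 0.0643) without those arrays. In glycolysis, 9 of 16 were called higher in brown and 2 in white (median 0.40; 5 higher in brown without 05 and 06), among them Pgk1 (0.78 ± 0.14, adjusted p = 0.000173) and Ldha (0.67 ± 0.14, adjusted p = 0.000978). Lipid synthesis had 0 of 15 called higher in brown and 2 in white, and cholesterol synthesis 0 of 16 and 2. The mitochondrial lists share members, so their counts are not separate. The called genes Sdhb, Sdhc and Sdhd are in both the TCA and oxidative phosphorylation lists. Etfa, Etfb and Etfdh are in both the latter and the fatty acid oxidation list. Cox7a1 and Cox8b are counted under both thermogenic and oxidative phosphorylation genes.

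Cell cycle genes were higher in brown cells. Of 35 DNA replication genes, 23 were called higher in brown and 0 in white, all 35 were positive, 8 separated the groups and the median was 0.73; leaving out any 1 array gave 19 to 23. The list's mean log2 signal was 7.47 to 7.87 on the brown arrays and 6.48 to 7.43 on the white arrays, of which array 51 was the lowest and 41 the highest. Of 34 mitosis genes, 19 were called higher in brown and 0 in white, all 34 were positive and the median was 0.66, with 11 called without brown array 05, 10 without 09 and 9 without 05 and 06. Both lists thus pointed one way in every tested member.

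The promoters of 2 mitosis genes are shown as examples, because CCAAT boxes, bound by the factor NF-Y, are a common feature of promoters of the late cell cycle. Both hold the marked motif, so they are not a random sample of the list. The stretches are again the 250 bases before the start, 5′ to 3′ on the gene's strand (RefSeq, GRCm38.p6), and capitals mark CCAAT or its reverse complement ATTGG. The matches began at -74 and -45 in Kifc1 (chr17:33890634-33890883, minus strand) and at -65 and -22 in Cks2 (chr13:51644982-51645231, plus strand).
Kifc1: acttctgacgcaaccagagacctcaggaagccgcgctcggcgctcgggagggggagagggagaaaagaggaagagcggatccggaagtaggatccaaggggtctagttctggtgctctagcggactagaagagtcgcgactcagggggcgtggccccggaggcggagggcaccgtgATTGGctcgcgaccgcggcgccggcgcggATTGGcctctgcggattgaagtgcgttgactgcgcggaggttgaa
Cks2: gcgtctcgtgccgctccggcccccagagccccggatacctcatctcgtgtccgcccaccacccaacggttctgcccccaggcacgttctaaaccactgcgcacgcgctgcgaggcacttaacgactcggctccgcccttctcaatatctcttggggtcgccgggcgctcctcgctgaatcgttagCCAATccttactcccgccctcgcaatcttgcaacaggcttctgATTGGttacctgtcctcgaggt

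CCAAT was found on either strand in 27 of 31 promoters of the tested mitosis genes (87.1%), in 22 of 36 of the replication genes (61.1%), in 34.7% of promoters of all tested genes and in 33.8% of all promoters. For the members called higher in brown, it was in 17 of 19 mitosis promoters (89.5%) and 13 of 25 replication promoters (52%). Over all genes higher in brown cells the share was 41.3%, and over those higher in white cells 29%.

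Tk1, thymidine kinase, read 1414, 1102, 1564, 1486 and 1538 in brown cells and 358 to 837 in white cells, without overlap (1.42 ± 0.21, adjusted p = 2.09e-05), but its second probe set gave -0.73 (adjusted p = 0.378). Rrm2, a subunit of ribonucleotide reductase, was 1.34 ± 0.25 (adjusted p = 0.000281), and Cdc6, the licensing factor, 1.17 ± 0.20 (adjusted p = 9.87e-05). Among mitosis genes, the motor gene Kifc1 was 1.72 ± 0.40 (adjusted p = 0.0023), the spindle checkpoint gene Mad2l1 1.24 ± 0.30 (adjusted p = 0.00401), and Cks2, a cyclin-dependent kinase subunit, 1.11 ± 0.30 (adjusted p = 0.00875). Cks2 lost its call without brown arrays 05 and 06 (0.99, adjusted p = 0.0762).

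The G1 regulators moved in both directions, with 3 of 17 called higher in brown and 3 in white (5 without white array 45). Ccnd1, cyclin D1, read 233 to 286 in brown cells and 87.1 to 188 in white cells (1.003 ± 0.18, adjusted p = 0.000185). Cdkn2b, an inhibitor of the kinases that cyclin D binds, read 21.7 to 50.004 in brown cells against 116 to 212 in white cells (-2.31 ± 0.22, adjusted p = 1.78e-08). The groups did not overlap for either gene.

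On floored signals, the IGF axis held the largest white-enriched difference of all 6281 genes tested, that of Igfbp3. Without the floor, the retinoid pathway gene Aldh1a3 was at -5.76 and Igfbp3 at -5.34, so this rank depends on the floor. Igfbp3, an IGF binding protein, read 43.6, 24.4, 115, 80.7 and 51.04 on the brown arrays and 1711 to 2762 (median 2257) on the white arrays, a gap with no array between (-5.34 ± 0.30, adjusted p = 5.28e-13; -4.10 on its other probe set). Igf1 read 61.4, 146, 8.21, 23.9 and 64.9 in brown cells and 778 to 1764 (median 1112) in white cells (-4.75 ± 0.42, adjusted p = 3.41e-09). Its other probe set differed by only -0.48 ± 0.11 (adjusted p = 0.00279), so the size of the Igf1 difference depended on the probe set. Igfbp4 was also higher in white cells (-2.04 ± 0.12, adjusted p = 6.53e-13; -0.29, adjusted p = 0.302, on its other probe set). Igf2, the fetal ligand of the same axis, was the only one of 15 IGF and insulin axis genes called higher in brown cells, at 290 to 413 against 150.4 to 253 (0.95 ± 0.20, adjusted p = 0.000812), while 5 were called higher in white (median -0.44).

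In the Wnt pathway, 3 of 32 genes were called higher in brown and 8 in white (median -0.22; 1 higher in brown without brown array 06). Wnt4, a secreted ligand, read 8.21 to 8.57 on the brown arrays and 27.1 to 280 (median 194) on the white arrays, where array 41 was the lowest (-4.20 ± 0.34, adjusted p = 4.81e-10; higher-floor value -2.41). Rspo1, a secreted enhancer of Wnt signalling, read 8.21 to 15.2 against 60.8 to 90.1 (-3.01 ± 0.21, adjusted p = 4.19e-11; higher-floor value -1.37), and Sfrp1, a secreted Wnt antagonist, 144 to 305 against 654 to 1653 (-2.31 ± 0.24, adjusted p = 7.01e-08). These 3 genes hold an agonist, an enhancer and an antagonist, and all had non-overlapping groups.

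Of 38 BMP, activin and TGF-beta genes, 13 were called higher in white and 3 in brown (median -0.37; 8 higher in white without brown arrays 05 and 06, and 1 higher in brown without 05 or 09), including Ltbp2, a latent TGF-beta binding protein (-2.24 ± 0.24, adjusted p = 1.53e-07). Of 31 FGF, PDGF, VEGF and hedgehog genes, 7 were called higher in white and 1 in brown. Vegfd, a lymphangiogenic ligand, was -1.95 ± 0.17 (adjusted p = 1.72e-09), and Fgf18 -2.41 ± 0.39 (adjusted p = 5.07e-05; higher-floor value -1.54).

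Of the 4 Aldh1a genes tested, whose family includes the enzymes that make retinoic acid, 3 were higher in white cells: Aldh1a3 at -4.95 ± 0.26 (adjusted p = 2.06e-13; higher-floor value -3.28), Aldh1a2 at -3.31 ± 0.44 (adjusted p = 3.88e-06; higher-floor value -1.53) and Aldh1a1 at -1.80 ± 0.20 (adjusted p = 2.62e-07). The remaining gene, Aldh1a7, named after its values were seen, was not called (0.40 ± 0.29, adjusted p = 0.349). Aldh1a3 was at the floor on 4 of 5 brown arrays, read 14.1 on array 06, and read 208 to 461 (median 273) on the white arrays. The whole retinoid list, with 2 of 11 called higher in brown and 4 in white, had a positive median (0.29). Other leading white genes were Cyp7b1, an oxysterol hydroxylase (-3.71 ± 0.28, adjusted p = 1.09e-10; -3.08 on its other probe set), and Sphk1, sphingosine kinase (-3.81 ± 0.35, adjusted p = 8.83e-09).

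The remaining genes with the largest non-overlapping differences belong to no list described here. On the white side, Wdr92 was highly expressed in both types, at 474 to 2024 in brown cells and 6746 to 9073 in white cells (-3.24 ± 0.22, adjusted p = 2.13e-11). Zbtb20, a transcriptional repressor, was -3.44 ± 0.43 (adjusted p = 1.6e-06; higher-floor value -1.85), and its lowest white arrays, at 20.1 and 37.3, were again 45 and 51. Cck, cholecystokinin (-3.24 ± 0.42, adjusted p = 2.9e-06; higher-floor value -1.79), Npl, a sialic acid lyase (-3.11 ± 0.47, adjusted p = 2.26e-05), and Klf7, a zinc finger factor (-3.06 ± 0.34, adjusted p = 2.27e-07; higher-floor value -1.33), read at most 48.1 on any brown array. On the brown side, Rpl39l, a ribosomal protein gene related to Rpl39, read 122, 143, 154, 176 and 141 against 10.3 to 25.2 (3.07 ± 0.30, adjusted p = 1.92e-08). Gimap4, a GTPase gene of the immune system, was 2.49 ± 0.44 (adjusted p = 0.000158; higher-floor value 1.57).

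Matrix genes were higher in white cells. Of 37 extracellular matrix genes other than collagens, 23 were called higher in white (62.2%, against 12.8% of all genes) and 0 in brown, 13 separated the groups, and the median was -0.76; leaving out any 1 array gave 17 to 24. The list's mean log2 signal was 7.49 to 7.91 in brown cells and 8.04 to 8.96 in white cells, where arrays 41, 42, 45 and 51 were the lowest. Ogn, osteoglycin, was -2.39 ± 0.35 (adjusted p = 1.45e-05), Lum, lumican, -1.86 ± 0.31 (adjusted p = 7.48e-05) and Dcn, decorin, -1.57 ± 0.23 (adjusted p = 1.64e-05). All 3 are small leucine-rich proteoglycans that bind collagen fibrils.

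Of 23 collagen genes, 8 were called higher in white and 0 in brown, though the median was 0.0016. The fibrillar collagens Col1a1, at 1564 to 2590 against 2836 to 9849 (-1.71 ± 0.22, adjusted p = 2.01e-06), and Col3a1, at 1625 to 2437 against 4110 to 6892 (-1.44 ± 0.13, adjusted p = 6.55e-09), separated the groups. Of 12 matrix proteases and inhibitors, 7 were called higher in white and 0 in brown (median -0.86), among them the membrane-bound collagenase Mmp14 (-1.74 ± 0.19, adjusted p = 9.78e-08).

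Innate immune genes were divided. Of 28 interferon response genes, 10 were called higher in brown and 2 in white (median 0.36; 5 higher in brown without arrays 05 and 06). Isg15, an interferon-induced ubiquitin-like modifier, was 1.31 ± 0.20 (adjusted p = 2.77e-05), and Usp18, which removes it from proteins, 1.65 ± 0.31 (adjusted p = 0.000362). Of 13 complement genes, 5 were called higher in white and 0 in brown (median -0.40), such as Serping1, the C1 inhibitor (-1.20 ± 0.15, adjusted p = 2.36e-06). Saa3, an acute phase apolipoprotein, read 612 to 3059 in brown cells and 5024 to 10219.9 in white cells (-2.51 ± 0.25, adjusted p = 2.3e-08).

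Markers of cells other than preadipocytes also differed. Of 12 endothelial genes tested, 8 were called higher in brown and 0 in white (66.7%), 7 separated the groups and the median was 1.04. Cldn5, a tight junction protein of endothelium, read 182, 149, 227, 166 and 426 on the brown arrays and 8.21 to 102 (median 39.3) on the white arrays, without overlap (2.56 ± 0.48, adjusted p = 0.000313). Icam2 was 2.19 ± 0.29 (adjusted p = 4.84e-06; higher-floor value 0.82) and Emcn, endomucin, 1.72 ± 0.34 (adjusted p = 0.000561). The summed signal of the list was 2182 to 3501 in brown cells and 1524 to 2349 in white cells; its mean log2 signal was 7.00 on brown array 19 and 6.33 to 6.40 on the other brown arrays, and the count was 8 without array 19. The part of these cells in the brown-enriched genes above was not tested.

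Of 15 macrophage genes, 4 were called higher in white and 0 in brown (median -0.10), and 2 with the higher floor. These were Csf1r, the receptor for the macrophage growth factor (-1.24 ± 0.21, adjusted p = 0.00012), Cd14, the endotoxin co-receptor (-0.98 ± 0.14, adjusted p = 1.48e-05), Lyz2, lysozyme (-1.53 ± 0.43, adjusted p = 0.0113; higher-floor value -0.59, adjusted p = 0.231), and Fcgr3, an Fc receptor (-0.91 ± 0.33, adjusted p = 0.0468; higher-floor value -0.10, adjusted p = 0.57; not called when any 1 of 10 arrays was left out, or with number runs as a random block, adjusted p = 0.102). A second Csf1r probe set gave -0.24 (adjusted p = 0.749). Their summed signal was 884 to 1179 in brown cells and 961 to 2402 in white cells, and array 51 had the highest list mean, 6.69 against 5.08 to 6.01 on the other white arrays. The part of macrophage RNA in the white-enriched immune genes was not tested. Of 9 mesothelial and epithelial genes, 1, Krt19, was called higher in brown and 2 in white; the summed signal was 525 to 901 and 518 to 2265, and the 2 were Wt1 and Aldh1a2, described above. The share of mesothelial cells in these differences was not tested. Of 6 lymphocyte genes and 5 erythrocyte genes, 0 were called in limma. At an unadjusted p under 0.05, 1 lymphocyte gene was higher in brown and 1 in white, and 1 erythrocyte gene was higher in white. Wherever a count of 0 in a direction is given here for another list, the unadjusted count was at most 2 (smooth muscle and pericyte genes, 2; collagens, 1; all others, 0), and the Wilcoxon rank sum test gave 0.

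**Figure D4:**
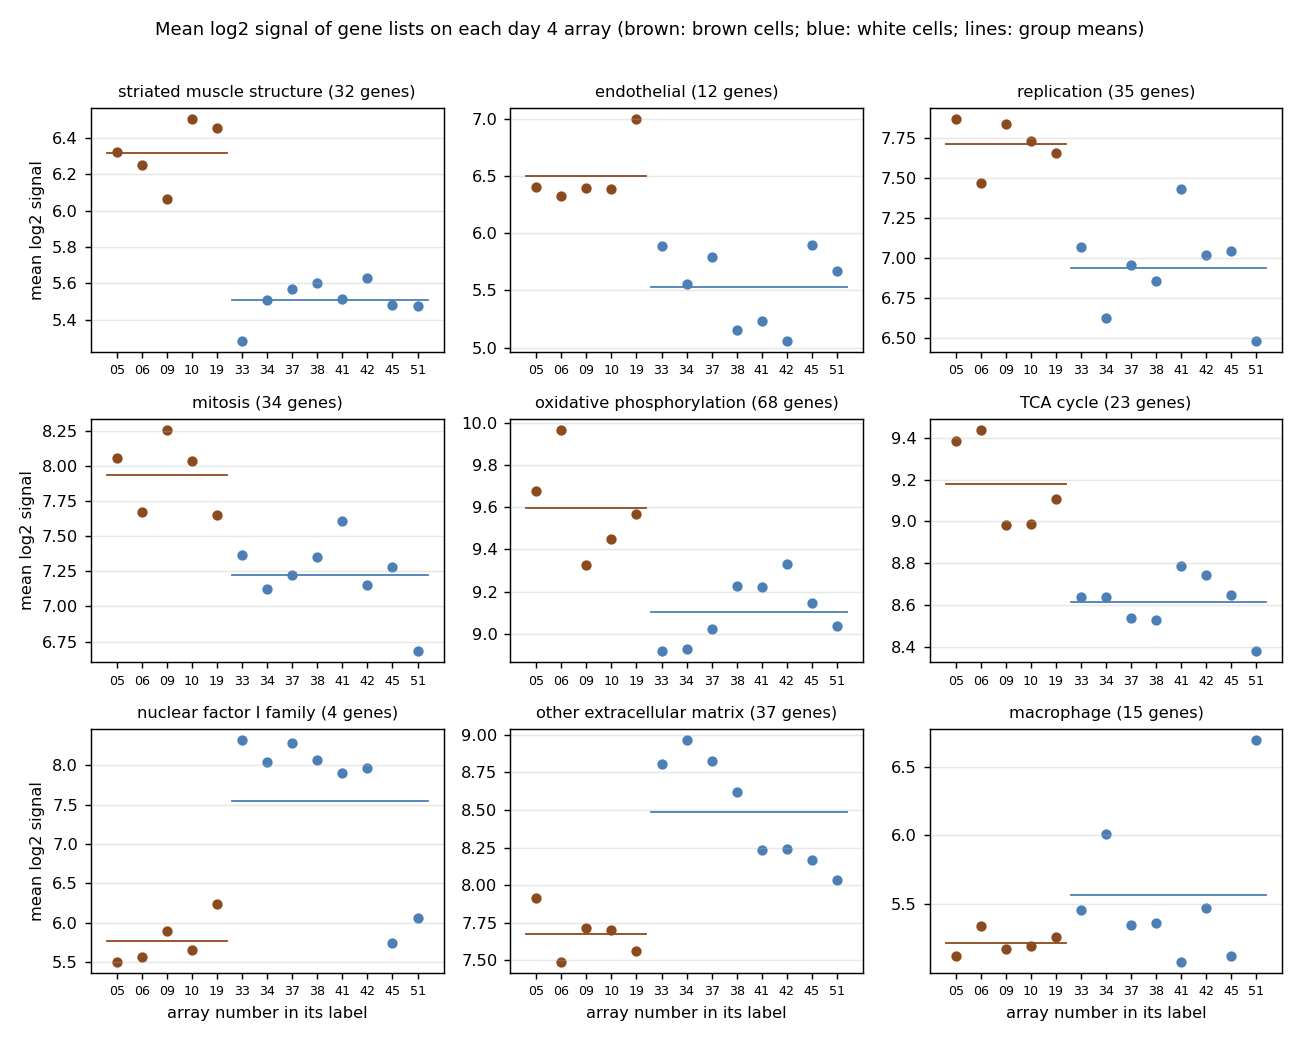
Mean log2 signal of 9 gene lists on each of the 13 day 4 arrays (brown points, brown cells; blue points, white cells; lines, group means; vertical axes do not start at 0). Striated muscle and endothelial genes are higher on all brown arrays, matrix genes on all white arrays, and the nuclear factor I family drops to the brown level on white arrays 45 and 51.

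The day 4 pattern was set beside the comparison of differentiated cells at day 7, which contrasts other arrays and called 2112 of the 8397 probe sets (25.2%). Both comparisons came from the same fit, with an estimate of the spread shared by all 4 groups, so their calls are not independent. The labels do not tell whether day 4 and day 7 arrays came from the same animals or cultures. The 3′ to 5′ Gapdh ratio, which overlapped between types at day 4, separated them at day 7 (0.854 to 0.942 in brown and 1.09 to 1.54 in white cells), so at day 7 it cannot be told apart from cell type. With this ratio in the model, 274 probe sets were called at day 7 and 1819 at day 4. Of 908 probe sets higher in brown at day 4, 578 were also called higher in brown at day 7 (63.7% of the day 4 list and 53.7% of the day 7 list), and of 1025 higher in white, 640 were (62.4% and 61.8%). The sign was the same at day 7 for 1862 of the 1933 called at day 4, and 1 probe set was called in opposite directions. A test of the change in the difference between days called 18 probe sets (0.214%), with 670 at an unadjusted p under 0.05, and 11 of the 18 were also called at day 4. Leaving out 1 day 4 array gave 7 to 23 calls: 23 without brown 06, and 7 to 11 without any 1 of brown 05, 09, 10 and 19 or white 33, 34, 37, 42 and 45. Of those 11, 8 were nearer 0 at day 7.

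Among lineage factors, the day 7 difference of Zic1 was 3.04, Lhx8 3.50, Meox2 4.03, Tcf21 -5.09 and Wt1 -2.28. The Acta1 difference fell from 3.55 to 0.91 ± 0.31 (adjusted p = 0.0323), a change of -2.64 ± 0.42 (adjusted p = 0.00213). Its day 7 signals were 205, 115, 208, 195 and 283 on the brown arrays, against 398 to 738 at day 4, and the white arrays read 73.0 to 147, against 16.5 to 86.0. Myog was 0.57 at day 7 (adjusted p = 0.231), but the change itself, -1.77 ± 0.47, was not called (adjusted p = 0.135), except without brown array 06 (-2.03, adjusted p = 0.0488). In Tnnc1 the difference was 3.04 at day 7.

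Ahsg, the liver-type plasma protein fetuin-A, was at the floor on all brown arrays at day 4 and at least 6.08-fold higher in white cells (adjusted p = 1.09e-10; higher-floor value -0.78). At day 7 it read 40.3 to 72.6 in brown cells and 65.2 to 98.4 in white cells, and the difference moved from -2.60 ± 0.19 to -0.43 ± 0.21 (change 2.18 ± 0.28, adjusted p = 0.000273). With the higher floor, which lies near these signals, the change was 0.36 and was not called (adjusted p = 0.747). Gpx3, the secreted glutathione peroxidase, changed sign: -0.97 ± 0.19 at day 4 (adjusted p = 0.000547) and 0.59 ± 0.20 at day 7 (adjusted p = 0.0343), with a change of 1.56 ± 0.28 (adjusted p = 0.00941), which fell to 1.06 (adjusted p = 0.657) once the Gapdh ratio entered the model. In contrast, Sox18, an endothelial transcription factor, grew from 1.52 ± 0.32 to 3.65 (change 2.13 ± 0.47, adjusted p = 0.0477), a call that was lost when any 1 day 4 array other than white 41 was left out (adjusted p from 0.0503 to 0.118).

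Of 13 genes called for the change between days, 9 were also called at day 4. The 5 of these not yet described had adjusted p-values from 0.0386 to 0.0477. Apod, apolipoprotein D, went from 1.64 ± 0.33 to 3.86 (change 2.22 ± 0.48, adjusted p = 0.0477; higher-floor value at day 4 0.38, adjusted p = 0.106) and Gng11, a G protein gamma subunit, from 0.68 ± 0.15 to 1.74 (change 1.06 ± 0.22, adjusted p = 0.0423). The white-enriched genes Ctsh, a cathepsin (from -2.10 ± 0.17 to -0.86, change 1.24 ± 0.25, adjusted p = 0.0386), and Kng1, kininogen (from -2.002 ± 0.15 to -0.94, change 1.07 ± 0.22, adjusted p = 0.0393), moved toward 0. Rgs16, a regulator of G protein signalling, went from -1.15 ± 0.19 to 0.13 (change 1.28 ± 0.28, adjusted p = 0.0477). Each of these 5 calls was lost under at least 10 of the 26 alternative settings that gave this test, whereas the change in Acta1 was called under all 26.

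**Figure D5:**
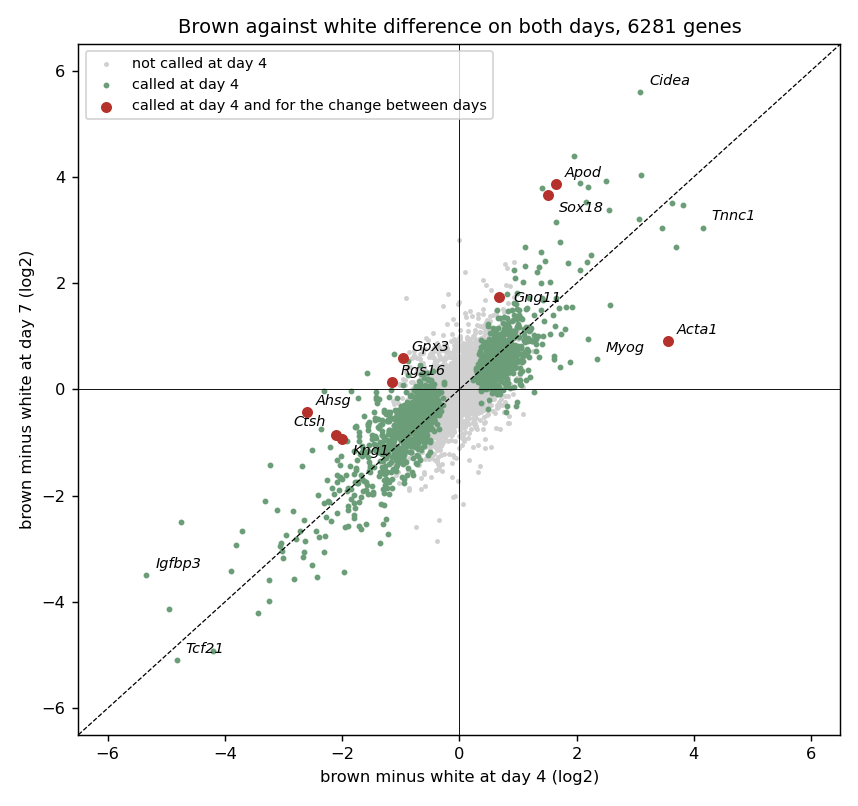
Brown minus white log2 difference at day 4 (horizontal) against day 7 (vertical) for 6281 genes; the dashed line marks equal differences, green points are called at day 4 and red points are also called for the change between days. Tcf21 lies near the line, Acta1 far below it, and Gpx3 lies above 0 at day 7 and below 0 at day 4.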

How the data were processed

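Signal intensity per probe set was deposited as MAS5 values, per the submitters' processing notes; scaling constant, detection calls and background settings are not given in the sources used here. Each array was rescaled to a 2% trimmed mean of 150, values under the 20th percentile of all signals (8.21) were set to it, and log2 was taken. Of 12422 non-control probe sets, 8397 were tested: those above their own array's 40th percentile on at least 5 of 24 arrays. limma 3.58.1 (R 4.3.3) was fitted with 4 group means over all 24 arrays (20 residual degrees of freedom, intensity trend), with Benjamini-Hochberg adjustment over the 8397. The fit was tested on simulated data.

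Gene symbols came from the platform annotation: 10855 probe sets had 1 symbol, 396 several and 1237 none. A gene with several tested probe sets was represented by the brightest on average. Named genes were the 15 with the largest non-overlapping difference each way, up to 4 called members of each list each way, a fixed panel, and genes called for the change between days. The members and lists were chosen with earlier results of these data known, and 3 list patterns were corrected after their matches were seen. Promoters came from RefSeq (GRCm38.p6; 5034 of 6281 tested genes matched). The number of arrays limits the precision; the median standard error at day 4 was 0.20 (log2). No 2 arrays held identical values. Alternatives changed the floor, the filter, the scaling, the model, the test and the arrays used. The panel gene Prdm16 was not matched.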

Additional observations from a re-analysis of the deposited data

Results flagged for a closer look

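Within the day 4 groups, a lowest or highest array stood apart from the rest by Dixon's 95% criterion in 18 of 222 gene and group pairs and in 2 of 94 list and group pairs; chance gives about 1 in 20. In 6 of the 18, all other arrays of the group were tied at the floor, so any value above it meets the criterion; the other 12 are close to what chance gives. Brown array 19 was the lowest brown array for Meox2 (signal 96.5, others 148 to 176) and Cks2 (367, others 732 to 824). It was the highest for Ebf2 (149, others 114 to 120), Vegfd (458, others 214 to 266), Rspo1 (15.2), Wnt4 (8.57) and Aldh1a2 (8.41), the last 3 against a floor of 8.21 on the other brown arrays, and for the endothelial list (mean log2 signal 7.00, others 6.33 to 6.40). Among the other brown arrays, Tk1 was lowest on 06 (1102, others 1414 to 1565), and Aldh1a3 (14.1) and Klf7 (11.4) were above the floor on 06 alone, as was Cck on array 10 (48.1).

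Among white arrays, 41 was the lowest for Wnt4 (27.1, others 130 to 280), Sphk1 (230, others 349 to 413) and Thy1 (229, others 379 to 590). Cdkn2b was lowest on array 45 (116, others 159 to 212), Nnat on 51 (8.21, others 27.2 to 76.9) and Tnni1 on 34 (16.2, others 60.7 to 126). Cidea was highest on 38 (39.8, others 8.21 to 14.9). The striated muscle list was lowest on 33 (5.28, others 5.47 to 5.63).

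A change of the brown against white difference between day 4 and day 7 was called in the main fit for 9 named genes. Only Acta1 kept this call under every alternative setting. Sox18 lost it under 22 of 26 settings, and Apod and Rgs16 under 18 each. The change was negative for Acta1 (-2.64) and positive for Ahsg (2.18), Apod (2.22), Ctsh (1.24), Gng11 (1.06), Gpx3 (1.56), Kng1 (1.07), Rgs16 (1.28) and Sox18 (2.13).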

How the results depend on the processing

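Calls at day 4 numbered 1548 to 2150 when 1 array was left out (main 1933). Without brown arrays 05 and 06 there were 1170 (507 higher in brown, 663 in white), and the Wilcoxon rank sum test gave 1081 (537 and 544); fewer arrays were used in the first, and the cause of the second was not tested. Calls of at least 2-fold (580) numbered 381 with the floor at the 40th percentile, 379 by the Wilcoxon test and 909 without white arrays 41, 42, 45 and 51, a set chosen after seeing the data. With the Gapdh ratio as a covariate, day 7 calls fell from 2112 to 274, while day 4 had 1819. The 18 calls for the change between days became 10 without a floor, 35 with the higher floor, 10 without the filter, 8 with a stricter filter, 11 without the intensity trend, 45 with array weights, 36 with number runs as a random block, 5 with the Gapdh ratio and 9 without white arrays 33 and 34 (also chosen after seeing the data), and 7 to 23 with 1 array left out. The cause was not tested. With number runs as a random block, 1448 of the 1933 day 4 calls remained. With only the day 4 arrays in the fit, 1460 probe sets were called at day 4, 1427 of them among the 1933. In that limma fit Hoxc4 (adjusted p = 0.0694), Pdgfra (adjusted p = 0.0625) and Fcgr3 (adjusted p = 0.122) lost their calls. Of 111 named genes, the difference changed sign only for Lep and Adipoq, neither of them called. Lep (0.03) was -0.020 with array weights, -0.15 without white arrays 45 and 51, -0.23 without brown 05 and 06, -0.31 without white 41, 42, 45 and 51, and -0.12 to 0.16 with 1 array left out. Adipoq (0.38) was -0.087 without brown 05 and 06. Of the other named genes, 15 lost their call under the Wilcoxon test (Cidea, Cox7a1, Cox8b, Retn, Cidec, Myod1, Hoxc4, Pdgfra, Mad2l1, Lyz2, Fcgr3 and the 4 nuclear factor I genes) and 10 without brown 05 and 06. The share of calls higher in brown (47.0%) ranged from 43.3% to 50.4%. No paired analysis was done, because the labels name no pairs of arrays. The test of the change between days treated arrays as unpaired.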
